A study of Mus musculus with 12 samples.

Results

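The hypothalami of mice that drank little alcohol were compared with those of mice given water alone. The 6 arrays of this comparison were those labelled low alcohol drinker (3 arrays) and water group (3 arrays), out of 12 arrays in the series. They were taken by label, and the comparison was chosen with earlier results of these data known. All mice were males of ICR, an outbred strain, and had been moved to drinking tubes at 3 weeks of age. Water mice had deionized water in both tubes throughout, whereas alcohol mice could choose between water and a solution of 5% or 10% alcohol. By the study's supplement, a single pool of the 3 that drank less held only mice given 5%, and the others held mice of both strengths. The labels do not say which array is which pool. Hypothalami were taken on day 51 by the labels and day 57 by the study's methods. RNA was pooled before labeling, with 3 mice in each water pool and, by the study's supplement, 3 mice in each pool that drank less. The low drinker arrays are taken to be these pools, which the labels do not state. Arrays of a group thus differ as pools of a few outbred mice do. No array holds a low drinker pool before drinking began.

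The hypothalamus sets feeding, drinking, stress hormones and body clocks through small groups of peptide and amine neurons. Among them are dopamine neurons, which make the transmitter from tyrosine through tyrosine hydroxylase (Th) and dopa decarboxylase (Ddc), load it into vesicles through the monoamine transporter Slc18a2 and take it back up through the dopamine transporter Slc6a3. Larger groups of dopamine neurons lie in the ventral midbrain, just behind the hypothalamus, and are known for their part in reward and alcohol drinking. In the brain the homeobox factor Pitx3 is known as a mark of these midbrain neurons.

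The results on dopamine genes take up most of what follows, so the sequences just before the start sites of 3 of them are shown. The windows come from RefSeq on GRCm38.p6 and run from 250 bases before to 50 bases after a start site. Capitals mark TGACGTCA, the cyclic AMP response element, which reads the same on both strands and was found in 588 of 32851 promoters (1.79%).
Th (chr7:142899946-142900245, minus strand): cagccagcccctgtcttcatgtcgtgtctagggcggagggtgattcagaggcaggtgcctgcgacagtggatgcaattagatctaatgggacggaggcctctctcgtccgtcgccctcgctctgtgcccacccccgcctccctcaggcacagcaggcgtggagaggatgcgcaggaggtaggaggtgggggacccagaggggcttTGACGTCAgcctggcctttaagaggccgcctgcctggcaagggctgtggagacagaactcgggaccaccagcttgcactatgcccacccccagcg
Slc18a2 (chr19:59260628-59260927, plus strand): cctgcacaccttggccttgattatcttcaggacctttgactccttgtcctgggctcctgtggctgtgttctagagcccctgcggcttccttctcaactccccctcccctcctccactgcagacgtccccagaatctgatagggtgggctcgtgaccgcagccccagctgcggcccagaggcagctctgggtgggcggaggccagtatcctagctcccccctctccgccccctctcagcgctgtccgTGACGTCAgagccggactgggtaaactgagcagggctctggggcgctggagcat
Slc6a3 (chr13:73536497-73536796, plus strand): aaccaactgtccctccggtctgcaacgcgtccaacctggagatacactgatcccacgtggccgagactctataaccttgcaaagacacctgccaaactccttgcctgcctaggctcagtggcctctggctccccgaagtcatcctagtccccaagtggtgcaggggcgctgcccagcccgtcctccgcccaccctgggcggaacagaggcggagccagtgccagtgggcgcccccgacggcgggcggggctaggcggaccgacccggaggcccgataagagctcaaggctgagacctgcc
The element began at base 206 of the Th window and at base 247 of the Slc18a2 window. It was in neither the Slc6a3 window nor those of Pitx3, Ddc and Aldh1a1, Ddc and Aldh1a1 having 2 windows each. The site AAAGGTCA (TGACCTTT on the other strand), known to bind receptors of the Nr4a family, was found in 495 of 32851 promoters (1.51%) and, among these 6 genes, in 1 of the 2 Ddc windows. A match of letters does not show binding.

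Each value below is a log2 signal intensity minus the 75th percentile of its array, so 1 unit is a doubling and 0 is a bright probe. A probe is called detected on an array where the scanner software marked it as well above background, which held for 29107 to 32781 of 43379 spots on the 6 arrays. No spot was saturated. The 3 water arrays and the array of low drinker pool 1 lay on slide 1, while low drinker pools 2 and 3 lay on slide 2, which held no water array and was scanned on an earlier day. Low drinker pool 2 stood apart. Across 29965 probes measured on all 6 arrays it correlated with the water arrays at 0.979 to 0.981, low drinker pool 3 did so at 0.990 to 0.992 and low drinker pool 1 at 0.995 to 0.996. The difference lay in dim probes. With the probes in 10 classes of equal size by level, the median difference from the water mean in the dimmest class was 1.15 for low drinker pool 2, 0.46 for pool 3 and -0.07 for pool 1, and in the brightest class it was 0.01, 0.04 and 0.00. Within the 3 dimmest classes the median for low drinker pool 2 went from 0.22 in probes with up to 35% G and C bases to 1.16 in probes with over 50%, and for pool 3 from -0.02 to 0.44. For low drinker pool 1 it lay between -0.07 and -0.03. Early drinker pools 1 and 2, which shared slide 2, had 0.24 and 0.41 in the dimmest class, and the arrays of slide 3 had -0.01 to 0.12. The part of the slide and of the pools in this shift was not tested.

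**Figure D1:**
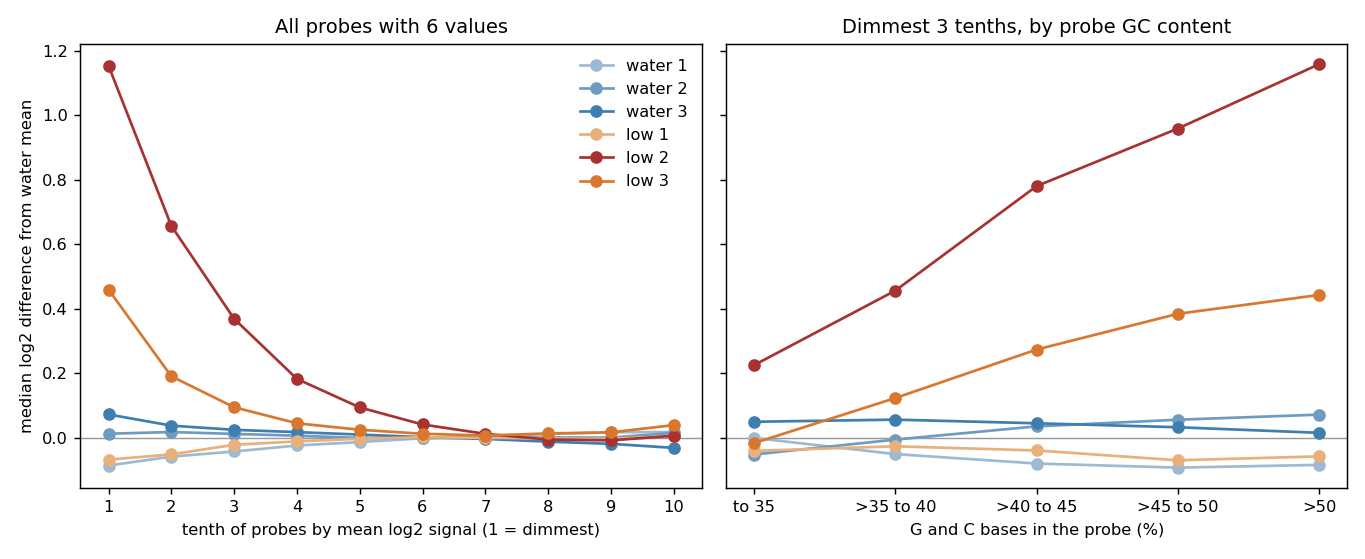
Median log2 difference of each array from the mean of the 3 water arrays, in 10 classes of mean signal (left, 29965 probes) and, in the 3 dimmest classes, by the percentage of G and C bases in the probe (right). Low drinker pool 2 lies above 0 in all classes of dim probes, low drinker pool 3 in all but those with up to 35% G and C (-0.02), both most in those with over 50%, and low drinker pool 1 stays within 0.07 of 0.

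With limma, 1572 of 31833 probes differed between low drinkers and water at an unadjusted p under 0.05, or 4.94%, where 1592 would pass if none differed. Of these, 1381 were higher (4.34% of those tested) and 191 lower (0.600%) in low drinkers. No probe (0.00%) passed an adjusted p of 0.05, and the smallest adjusted p in limma was 0.137. The split between higher and lower rested on the scaling, since quantile normalization gave 834 higher (2.62%) and 824 lower (2.59%). It was wider in dim probes. Of 916 probes higher and 181 lower among those with a value on every array, 622 and 88 were in the 3 dimmest classes (6.92% and 0.979% of the probes there), and 294 and 93 were in the other 7 (1.40% and 0.443%). Every low drinker array lay above every water array for 2113 of 29965 probes (7.05%) and below for 640 (2.14%). In the following, genes are called higher or lower at the unadjusted level and read against these shares. Exact permutation of 3 against 3 arrays cannot give a 2-sided p below 0.1.

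**Figure D2:**
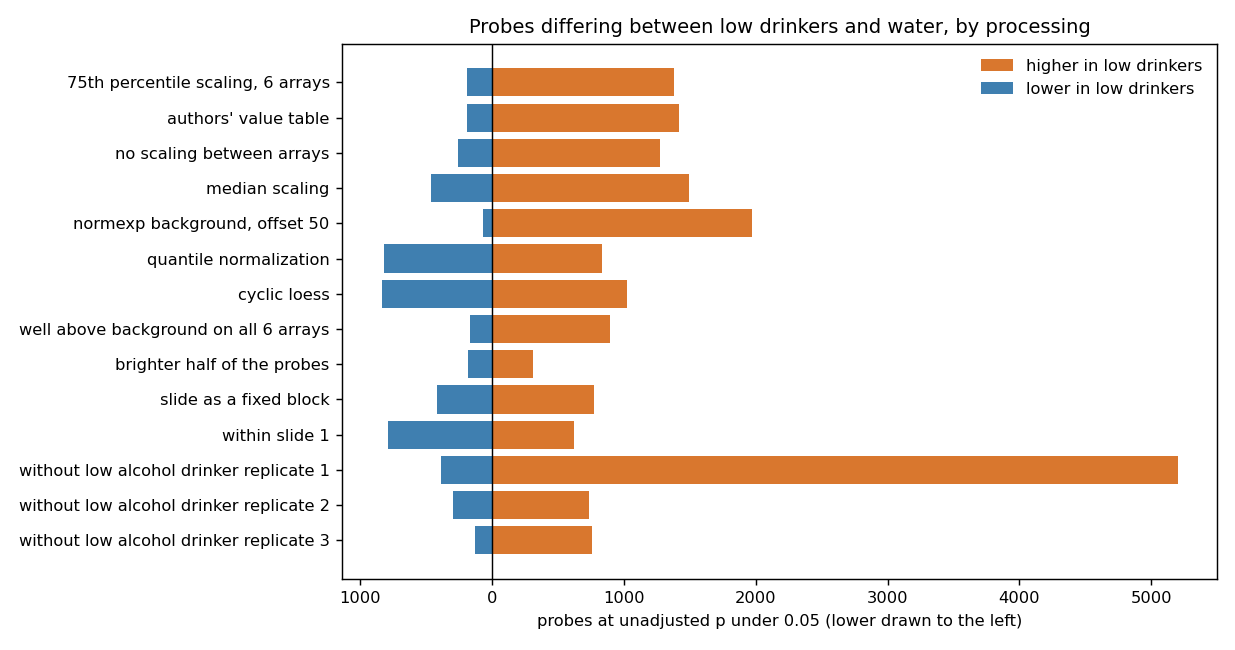
Number of probes at an unadjusted p under 0.05 in limma, higher (right) and lower (left) in low drinkers than in water, under 14 ways of processing. The 75th percentile scaling gave 1381 higher and 191 lower, quantile normalization 834 and 824, and leaving out low drinker pool 1 gave 5200 and 390.

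Single dopamine genes were higher in low drinkers at the unadjusted level. Fewer were called where the slide was taken into account, though the difference of Slc6a3 was then no smaller (1.33, and 1.43 with slide as a fixed block). Of 15 dopamine and serotonin genes 4 were higher at an unadjusted p under 0.05 in limma, namely Th, Ddc, Slc6a3 and Slc18a2, against a background of 4.34%. They are the 4 genes of the list that make, load and retrieve dopamine. With slide as a random block 3 of the 15 were higher and with median scaling 1, where 2.73% and 4.68% of all probes were higher. The list's median was 0.14, and -0.06 with quantile normalization, which left the 4 higher genes, where 2.62% of all probes were higher. A fixed block for slide leaves low drinker pool 1 against water, and the list's median was then 0.02, against -0.01 over all probes. The dopamine transporter Slc6a3, read by a probe at chr13:73715973-73716032 of mm9, was at 0.70, 1.80 and 1.97 in the water arrays and at 2.92, 2.79 and 2.76 in low drinker pools 1 to 3. Every low drinker array lay above every water array, and water pool 1 was far below the other two. Water averaged 1.49 ± 0.69 (SD, n = 3) and low drinkers averaged 2.82 ± 0.08 (SD, n = 3), a difference of 1.33 (standard error 0.35) or 2.52-fold. In limma the unadjusted p was 0.00989 and the adjusted p was 0.818. Quantile normalization gave a difference of 1.33 and slide as a fixed block 1.43, and leaving out water pool 1 left 0.94. The call was lost within slide 1 alone, with all 12 arrays, with or without slide as a fixed block, and where unequal variances were allowed for.

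Th, the rate-limiting enzyme of dopamine synthesis, with its probe at chr7:150079917-150079976 of mm9, was at 0.20, 0.73 and 0.63 in water and at 1.07, 0.99 and 1.05 in low drinkers. The difference was 0.52 (standard error 0.15, adjusted p = 0.827 in limma), and the groups did not overlap. Slc18a2 was at 0.39, 0.55 and 0.57 in water and at 1.12, 0.90 and 0.96 in low drinkers, a difference of 0.49 (standard error 0.09). Low drinker pool 1, which shared its slide with the water arrays, was the highest of the 6 for Slc6a3, Th and Slc18a2. A second Slc18a2 probe differed by 0.32 (standard error 0.14), also without overlap. Ddc, which turns L-DOPA into dopamine, was at 2.40, 2.79 and 2.78 in water and at 3.00, 2.92 and 3.11 in low drinkers, and its 2 probes differed by 0.35 and 0.39. Maoa, which breaks down monoamines, was close to water, at a difference of 0.06. Of the dopamine receptors Drd5, the 1 gene of the list called lower, was lower by 0.37 and Drd2 differed by 0.14 without passing an unadjusted 0.05.

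Once these genes had been seen to differ, a list of 24 genes known from dopamine neurons, mostly of the ventral midbrain, was drawn up and used whole. It is described here with no test, because it was chosen after values were seen and holds Th, Ddc, Slc6a3 and Slc18a2, so nothing is read from its counts against the shares of all probes given beside them. Of the 24 genes 10 were higher and 0 lower at an unadjusted p under 0.05, and for 12 every low drinker array lay above every water array. The median difference was 0.48, against 0.04 over all probes. With quantile normalization 7 of 24 were higher (median 0.29, against -0.02 over all probes), and with slide as a fixed block 6 of 24 (median 0.27, against -0.01), where 2.62% and 2.42% of all probes were higher. Without low drinker pool 2 it was 9 of 22 (2.41% of all probes), with a median of 0.38. In the fit over all 12 arrays with slide as a fixed block 1 of 24 was higher (1.95% of all probes).

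The factor Pitx3 was at -2.95, -2.54 and -2.70 in water and at -2.21, -1.95 and -2.11 in low drinkers, a difference of 0.64 (standard error 0.13). Chrnb3, a nicotinic acetylcholine receptor subunit of these neurons, was at -5.94, -5.33 and -5.16 in water and at -4.28, -4.09 and -4.33 in low drinkers. Its probe was detected on 2 water and 3 low drinker arrays, and its difference of 1.24 (standard error 0.22) went to 0.67 with quantile normalization. Aldh1a1, which makes retinoic acid in a class of dopamine neurons, was at 2.24, 2.25 and 2.11 in water and at 2.47, 2.66 and 2.79 in low drinkers, a difference of 0.44 that went to 0.27 with slide as a fixed block. Aldh1a7, a close homolog of Aldh1a1, was higher by 0.98 (standard error 0.18) and by 0.50 with quantile normalization, where it missed an unadjusted 0.05, and whether its probe also reads Aldh1a1 RNA was not tested. En2, a factor of the midbrain and cerebellum, differed by 0.33 and lay 0.02 above the nearest water array. Ret, the GDNF receptor, was higher by 0.62, but its probe was detected on 3 water arrays and 0 low drinker arrays, and with quantile normalization the difference was -0.23.

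Not every gene of the list differed. Nr4a2, Ntsr1, Sncg, Calb1, Foxa2 and Otx2 had differences between -0.10 and 0.23 and overlapped between groups. En1 was detected on 1 water and 1 low drinker array, Lmx1a on 1 and 0, and Lmx1b on none of the 6. The summed level of the 24 genes, on the linear scale in units of the 75th percentile, was 40.7 to 44.9 in water, 52.3 to 55.5 in low drinkers, 48.3 to 61.0 in early and 37.6 to 55.0 in late drinkers. In bulk RNA more cells of a type and more RNA per cell cannot be told apart. The part of midbrain tissue in the dissected pieces was not tested.

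Slc6a3 also varied among the arrays labelled early and late alcohol drinker. It was at 2.21, 3.40 and 2.66 in early drinker pools 1 to 3 and at -0.82, 3.09 and 2.21 in late drinker pools 1 to 3. Late drinker pool 1 was the lowest of the 12 arrays for Slc6a3, Chrnb3, Pitx3, Aldh1a7, Slc18a2 and Aldh1a1, and the low drinker arrays lay within the range of the early drinker arrays for Slc6a3.

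**Figure D3:**
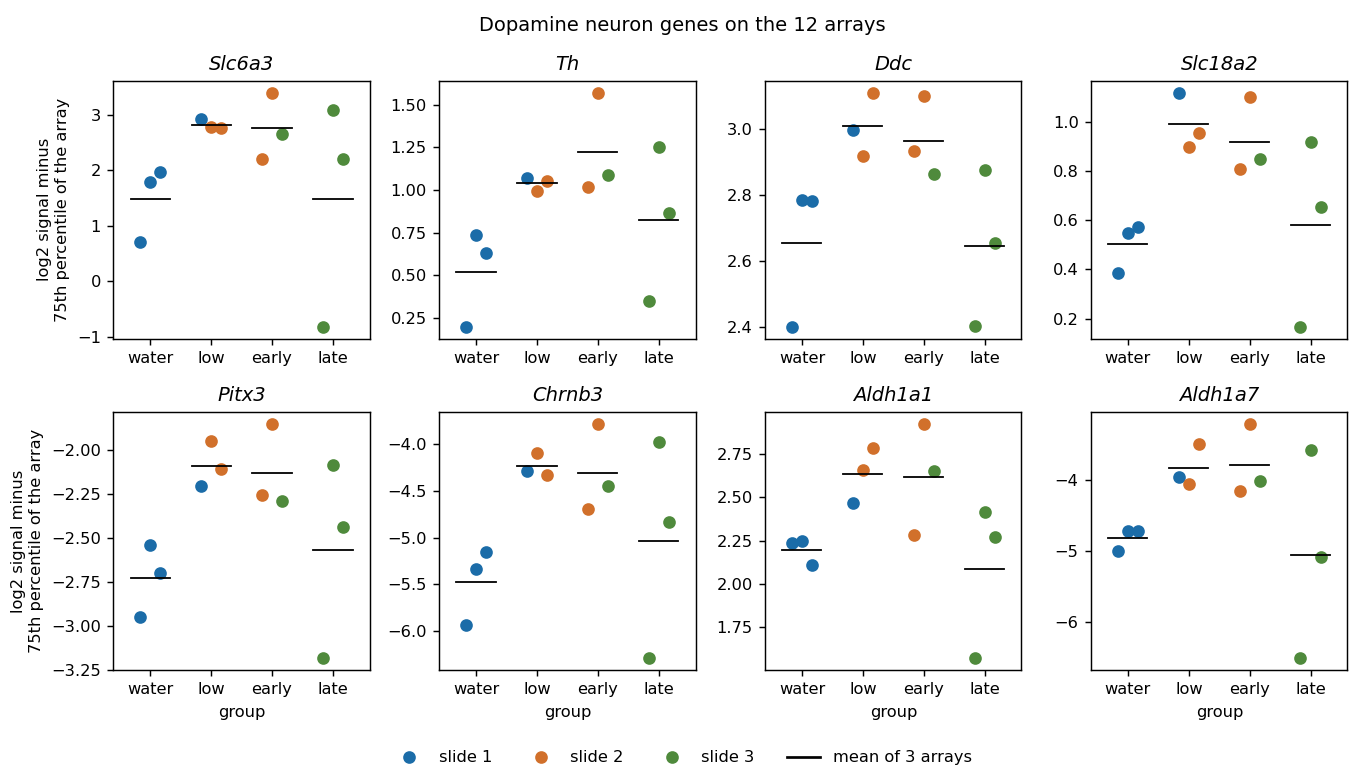
Log2 level of 8 dopamine neuron genes on each of the 12 arrays, by group (water, low, early and late drinkers), with colors for the slide and a line for the mean of 3 arrays. In each panel the 3 low drinker arrays lie above the 3 water arrays, low drinker pool 1 having shared slide 1 with water, and late drinker pool 1 is the lowest late array. The genes were taken from the list drawn up after values were seen, so nothing is read from their separation.

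The largest difference of any probe detected on all 6 arrays was that of a cDNA clone, AK046255, singled out after its values were seen. Its 60-base probe lies at chrX:133613745-133613804 of mm9 on the plus strand, with 35% G and C bases, and its first 30 bases were as follows.
AK046255 probe: tgacactttttcttcattctttggtagata
It was at -2.21, -2.26 and -2.004 in water and at 0.62, 0.45 and 1.15 in low drinkers, a difference of 2.90 (standard error 0.20) or 7.45-fold. The adjusted p in limma was 0.137. The levels fell into 2 sets on the 12 arrays, since early drinker pool 1 at 0.86 and late drinker pool 2 at 1.64 were also high, and the other 4 early and late drinker arrays were between -2.05 and -1.95. No array lay between. A probe of Fam199x starting 2371 bases before it on the same strand differed by 0.21, with a standard error of 0.29, and was detected on 1 water and 1 low drinker array.

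Among other single genes, the 8 higher and 8 lower with the widest gap between the nearest arrays of the groups, and the 6 of each with the largest mean difference, were taken from named genes detected on all 6 arrays. Of the 10 genes this gave as higher, 8 were in the 3 dimmest classes, as were 5 of the 12 lower ones. The probes of the higher genes had a median of 49.2% G and C bases and those of the lower 39.2%, where all probes tested had 41.7%. Col5a1, a chain of fibrillar collagen, had the widest gap, 1.12, and a difference of 1.69 on a dim probe, whereas a brighter Col5a1 probe differed by 0.12. Tssk4, Zc3h3, Prap1, Comp, Hand2 and Espn were likewise dim, with differences of 1.28 to 1.84. With slide as a fixed block, Hand2 went from 1.84 to 0.39 and Espn from 1.68 to 0.35, and Tssk4 from 1.66 to 1.93. That block leaves low drinker pool 1 against water, so the first pair rested on the arrays of slide 2 and this Tssk4 probe did not. A brighter Tssk4 probe was at -3.83, -3.95 and -4.01 in water and at -4.15, -2.17 and -2.54 in low drinkers. Its difference was 0.98 with overlap, and low drinker pool 1 was the lowest array. A second Zc3h3 probe differed by 0.72, also with overlap.

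Xdh, which makes uric acid, and Gpr182, a receptor of vessel endothelium, were the higher genes with the least spread. Xdh was at -4.11, -3.97 and -3.99 in water and at -3.22, -3.11 and -3.27 in low drinkers, a difference of 0.82 (standard error 0.07, adjusted p = 0.252 in limma). Gpr182 was at -2.26, -2.23 and -2.31 in water and at -1.55, -1.34 and -1.34 in low drinkers, a difference of 0.86 (standard error 0.08, adjusted p = 0.252 in limma). Both were higher on either slide. Quantile normalization gave 0.54 for Xdh and 0.80 for Gpr182, and early drinker arrays spanned -2.17 to -1.23 for Gpr182 and late ones -2.65 to -2.35.

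Among lower genes, Ogg1, which removes oxidized guanine from DNA, differed on both of its probes, by -0.65 (standard error 0.14) and -0.61 (standard error 0.14). The dimmer probe was at -1.53, -1.69 and -1.78 in water and at -2.07, -2.37 and -2.52 in low drinkers, and its difference was -0.40 with slide as a fixed block. Rgl1, an exchange factor for Ral, was lower by 0.38 and 0.25 on its 2 brighter probes. Pxdn, an extracellular peroxidase, was lower by 0.38 on its 1 probe tested, and the groups did not overlap. Masp2, a protease of the lectin pathway of complement, differed by -1.11 and -0.85 on 2 probes, with a wide spread among water arrays. Gpbp1, Ice2, Zfp704, Fntb and Ddx3y were lower on 1 probe by 0.37 to 0.74, and their other probes did not follow. The brightest Gpbp1 probe differed by 0.08, the brighter Ice2 probe by -0.03, the brighter Zfp704 probe by 0.00 and the second Fntb probe by 0.19. For the Y-linked Ddx3y the brighter probe differed by -0.07 and the dim one, with 20% G and C bases, by -0.67. Clcn1 was lower by 0.75, and Fam161a, at -0.66, missed an unadjusted 0.05.

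**Figure D4:**
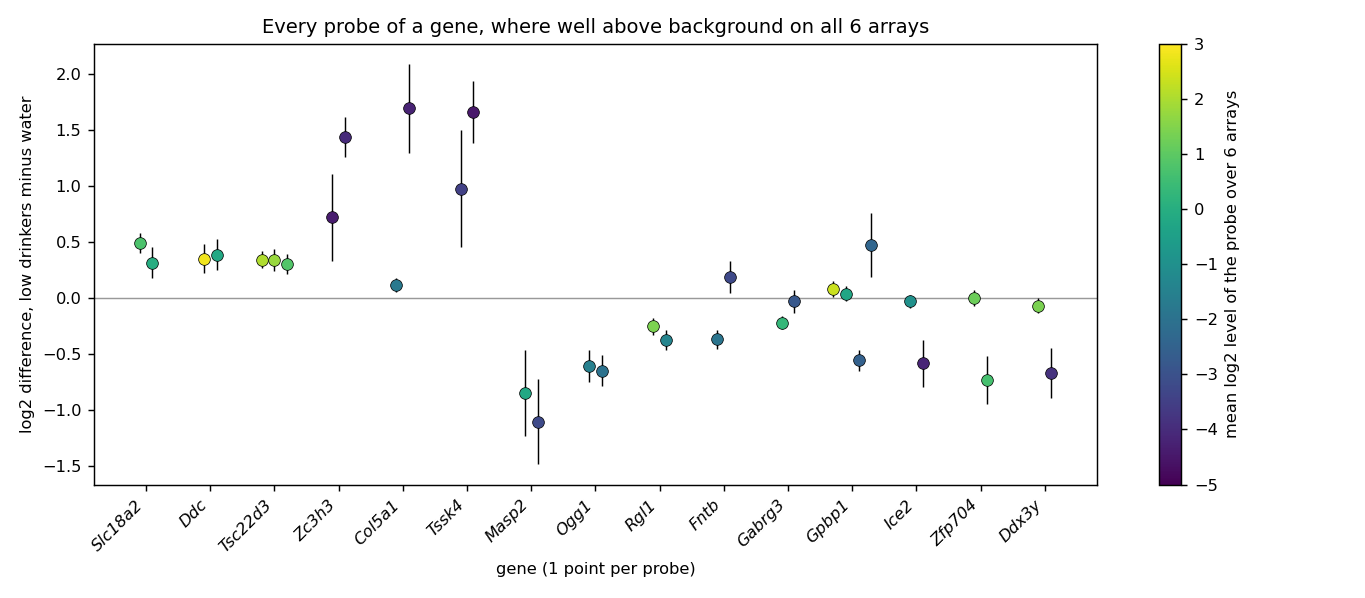
Log2 difference between low drinkers and water for every probe of 15 genes, where detected on all 6 arrays, with 1 standard error as bars and color for the mean log2 level of the probe. The probes of Slc18a2, Ddc, Tsc22d3, Ogg1 and Masp2 lie on the same side of 0, whereas the brighter probes of Col5a1, Ice2 and Zfp704 lie near 0.

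Of the stress axis genes 1 of 12 was higher, Tsc22d3, a known target of glucocorticoids. It was at 1.76, 1.93 and 1.96 in water and at 2.24, 2.17 and 2.26 in low drinkers, a difference of 0.34 (standard error 0.08, adjusted p = 0.717 in limma). Its 3 probes differed by 0.34, 0.34 and 0.30, and on each the groups did not overlap. On the brightest probe the early drinker arrays were at 1.78, 2.11 and 2.32, the first within the range of water, and the late drinker arrays were between 2.28 and 2.49. The median over the 12 genes was 0.06. With median scaling, which moved the median of all probes to -0.10, the Tsc22d3 difference was 0.20, and with no scaling between arrays it was 0.26, and the call was lost in both.

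Of 10 feeding neuropeptides none passed an unadjusted 0.05, and their differences lay between -0.08 and 0.31. Npy and Agrp, which drive feeding, differed by 0.05 and 0.13, Cartpt, which restrains it, by 0.00, Hcrt (orexin) by 0.13 and Pmch by 0.03. Of 11 neuroendocrine peptides 2 were higher, Kiss1 by 0.29 (0.17 with quantile normalization) and Vip by 0.35. Vip, a peptide of the clock neurons of the suprachiasmatic nucleus, was at -1.42, -1.39 and -1.74 in water and at -1.26, -1.10 and -1.15 in low drinkers. Avp differed by -0.12, Oxt by 0.03, Trh by 0.03 and Sst by -0.05, each within overlapping groups. Prok2, a peptide output of the clock, had the lowest difference of the list, -0.29, and did not pass an unadjusted 0.05. Of 6 opioid genes none passed, with Penk and Pdyn both at -0.01. Among 15 feeding and hormone receptors none passed, and their median was 0.04. Of 9 neuronal and hypothalamic genes none passed, and the neuronal Snap25 and the hypothalamic factor Fezf1 were detected on all 6 arrays, at 5.52 to 5.68 and 0.04 to 0.26.

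Clock genes and receptor subunits differed singly. Of 18 circadian genes 2 were higher. Per2, a repressor of the clock, was at -0.56, -0.35 and -0.42 in water and at -0.25, -0.19 and -0.09 in low drinkers, a difference of 0.27, and Npas2 was higher by 0.62 on a probe detected on 1 water and 1 low drinker array. The Npas2 difference was 0.01 after quantile normalization and 0.25 when slide was a fixed block, and it passed an unadjusted 0.05 in neither. Of 14 GABA-A receptor subunits, the main receptors of fast inhibition and targets of alcohol, 1 was lower. That gene, Gabrg3, was at 0.48, 0.40 and 0.45 in water and at 0.19, 0.24 and 0.25 in low drinkers, a difference of -0.22 (standard error 0.06), while its dimmer probe differed by -0.03. Of 23 glutamate receptor subunits 1, Grin2a, was lower, by 0.40 on a probe detected on 3 water and 1 low drinker arrays. Of 9 genes of ethanol and acetaldehyde metabolism 1 was higher, Aldh1a1, described above.

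Of 13 dilated cardiomyopathy genes 1 was higher, Igf1, an insulin-like growth factor, by 0.25 (standard error 0.09). The study chose that list on these samples, so it is not independent evidence. Igf1 was at -2.53, -2.69 and -2.74 in water and at -2.53, -2.35 and -2.33 in low drinkers, so low drinker pool 1 was level with water pool 1, and with quantile normalization the difference was 0.14. A dimmer Igf1 probe differed by 0.43 (0.26 with quantile normalization) and had no overlap, and the other 2 differed by 0.26 and 0.31 with overlap. On their brightest probes Adrb1 differed by 0.11, Gnas by -0.01, Adcy1 by 0.07 and Cacna1d by 0.10, and none passed an unadjusted 0.05. Of 19 immediate early genes, 20 heat shock and chaperone genes and 74 oxidative phosphorylation genes none passed. Of 78 cytosolic ribosomal protein genes 1 passed, Rpl11, at a difference of 0.19.

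Of 19 cytokine and Toll-like receptor genes 1 was higher, Tnf. It was at -6.71, -6.96 and -6.70 in water and at -4.92, -4.73 and -5.35 in low drinkers, near the bottom of the range. Its probe was detected on 1 water and 2 low drinker arrays, and its difference of 1.79 went to 0.96 with quantile normalization. Early drinker arrays were between -7.11 and -5.98. Of the 19 genes 16 had a difference above 0, and each array's median over the list was -0.03 to 0.03 in water and 0.08 to 0.41 in low drinkers, highest in low drinker pool 2. The list's median difference was 0.14, and -0.07 with quantile normalization. Its summed level was 25.1 to 26.8 in water and 27.7 to 28.5 in low drinkers. Of 24 synaptic vesicle genes 1 passed, Slc17a7, on a probe detected on 0 water arrays and 1 low drinker array, so no fold is read from it.

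Few cell type markers passed an unadjusted 0.05. None passed an unadjusted 0.05 among 12 oligodendrocyte and myelin, 12 astrocyte, 14 endothelial and mural, 10 meningeal and fibroblast, 3 intermediate pituitary, 10 choroid plexus, 8 blood, 10 cortex and hippocampus, 10 striatum, 10 thalamus and 4 sex markers. Of 14 microglia markers 1 was lower, C1qc, of the complement C1 complex, by 0.21, and 12 of 14 had a difference below 0, with a median of -0.09. Their summed level was 43.8 to 47.0 in water and 42.1 to 44.7 in low drinkers, which overlap. Each array's median over the list, as a difference from the water mean, was -0.04, 0.01 and 0.01 in water and -0.06, -0.10 and -0.08 in low drinkers, which do not overlap. Of 10 ependymal and tanycyte markers Col23a1 was higher by 0.26. Each array's median over that list was -0.07 to 0.06 in water and 0.08 to 0.17 in low drinkers. For the endothelial and mural list it was -0.06 to 0.02 in water and 0.04 to 0.10 in low drinkers, so neither list had overlap. In the other cell type lists these medians overlapped. The meningeal markers had a median of 0.19, and 10 of 10 had a difference above 0, while the median over the list was -0.13 in low drinker pool 2 and 0.32 and 0.36 in pools 1 and 3. Thalamus markers were 0.33 and 0.25 above water in low drinker pools 3 and 2 and 0.22 below in pool 1, taking each array's median over the list. Actb and Gapdh both differed by -0.04.

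Pituitary genes varied from array to array. Of 8 anterior pituitary markers Tshb and Ghrhr were higher at an unadjusted p under 0.05, Ghrhr on a probe detected on none of the 6 arrays. The summed level of these 8 markers was 3.31 to 12.5 in water and 7.11 to 9.49 in low drinkers. Low drinker pool 1 had Gh at -0.93 and Pomc, the precursor of ACTH and melanocortins, at 5.01, whereas the other 5 arrays had Pomc between 3.47 and 3.73. Pomc differed by 0.31 (standard error 0.44). The part of pituitary tissue in these values was not tested.

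**Figure D5:**
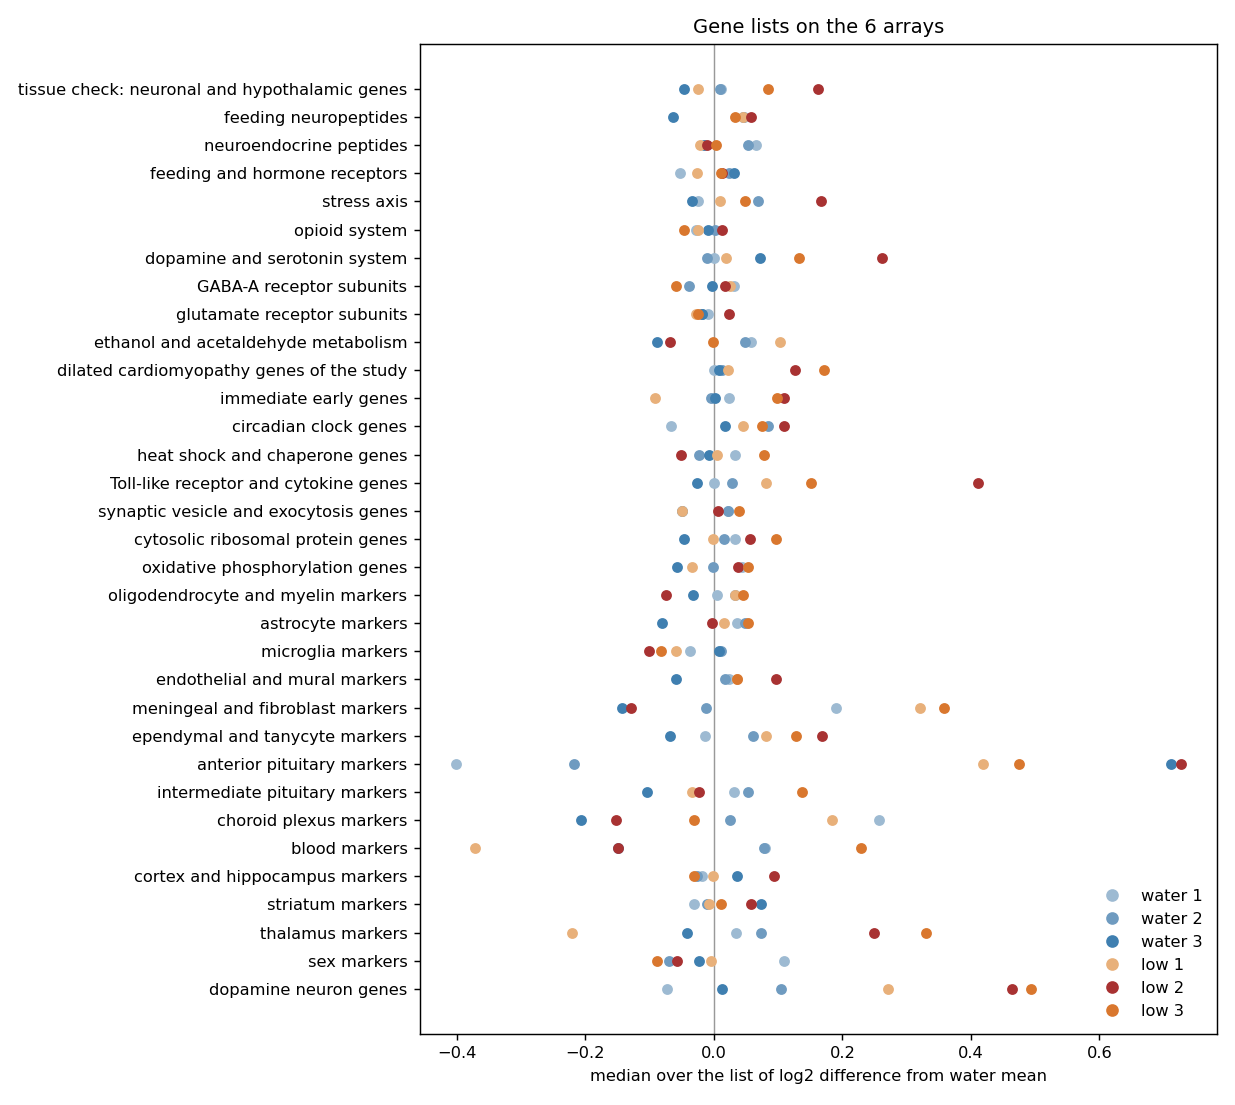
Median over each gene list of the log2 difference from the mean of the 3 water arrays, 1 point for each of the 6 arrays. Most lists lie within 0.2 of 0, and anterior pituitary markers spread widely within water. The dopamine neuron genes lie between 0.27 and 0.49 in low drinkers and between -0.07 and 0.11 in water. That list was drawn up after values were seen, so nothing is read from its separation.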

How the data were processed

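RNA from 12 hypothalamic pools was labeled with Cy3 and hybridized to Agilent mouse arrays, 1 pool per array. The authors deposited scanner output in which the signal intensity of each spot had been corrected for background by Feature Extraction, whose version reads 10.5.1.1 in the headers. These intensities are linear and not scaled to one another. The deposit also held a table of the same intensities, which matched the scanner values within 0.1% for 100% of the probes. The study's methods name log2 values, removal of outlier spots and of spots with signal/noise under 2, presence in over 50% of each group, and a t-test.

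Here intensities were taken to log2 and reduced by each array's 75th percentile over 43379 spots. Outlier spots and spots with signal/noise under 2 were set to missing, replicate spots of a probe were averaged, which left 41174 probes, and 31833 probes with values on at least 2 of 3 arrays per group were compared with limma 3.58.1 (R 4.3.3) and Benjamini-Hochberg adjustment. Probes were named by accession (25263) or symbol through a mouse gene table of GRCm38.p6, and 8075 kept the name of the files. Probe positions are those of mm9. Gene lists were read on the probe of highest mean over 12 arrays, without a set test. Crh, Pou1f1, Hbb-b1 and Ahsp were not analysed here. Some single genes are not reported here. Genes were named where they had the widest gap or largest difference between groups (8 and 6 in each direction), the lowest p in a list, or stood on a list of hypothalamic and study genes. The comparison, the lists and the rules were chosen with earlier results of these data known. Precision is limited by having 3 arrays in each group. The p-values measure the spread between arrays of a group, in which pools and, among low drinkers, slides and scan days are mixed. In simulated data 106 of 200 probes moved by 1 on the log2 scale passed an adjusted p of 0.05 among 31833, with 8 unchanged ones. The simulated errors were independent between probes and arrays, with a single spread per probe. They held no slide difference and no shift of dim probes, so these counts need not hold for the real arrays. Replicate numbers are those of the labels. Correlations of the deviations of same-numbered pools were 0.17, 0.06 and -0.03. Alternatives covered background, scaling, filters, slide, samples, test, and each array left out. Figures were drawn with matplotlib 3.10.9.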

Additional observations from a re-analysis of the deposited data

How the results depend on the processing

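The count of probes at an unadjusted p under 0.05 (1572, with 1381 higher, 191 lower and 0 at an adjusted p of 0.05) kept within 1.5 times its value with quantile normalization, median scaling, no scaling, cyclic loess, normexp, the authors' table, probes well above background, slide as a fixed block, slide 1 alone and the methods' t-test. The split moved with the scaling. Quantile normalization gave 834 higher and 824 lower, median scaling 467 lower, cyclic loess 835 lower, and normexp with offset 50 gave 69 lower. The counts were 2697 with 2506 higher with no signal/noise filter, 897 higher with probes detected on all 6 arrays, and 489 with 307 higher and 1 at an adjusted p of 0.05 in the brighter 15916 probes. That 1 probe, AK046255, had a water mean of -2.16, below the water median of all probes (-1.62), and so was among them through its low drinker values. Slide as a fixed block, which rests on low drinker pool 1, gave 770 higher and 416 lower, slide as a random block 989 with 869 higher and 120 lower, and slide 1 alone 623 higher and 788 lower. All 12 arrays gave 2914 with 2680 higher and 57 at an adjusted p of 0.05, and with slide as a fixed block 993 with 621 higher and 372 lower. Array weights gave 4812 with 4113 higher, 699 lower and 4 at an adjusted p of 0.05, the test for unequal variances 763 with 589 higher, and limma with trend and robust 1 at an adjusted p of 0.05. The probe that passed with trend and robust was AK046255 (adjusted p = 0.0016 in that limma fit). It was also among the 4 with array weights and among those passing without low drinker pool 1. The methods' t-test gave 1262 probes before and 0 after adjustment. Chosen after seeing the data, quantile normalization with slide as a fixed block gave 1002 with 634 higher and 368 lower, with probes detected on all 6 arrays 553 higher and 625 lower, and without low drinker pool 2 611 higher and 660 lower. Leaving out 1 array at a time gave 886 to 5590 probes, 734 to 5200 higher, 132 to 390 lower and 0 to 135 at an adjusted p of 0.05, with every highest value without low drinker pool 1. The count of list genes was 21 of 515 (4.08%), no more than the 4.93% of all 20996 symbols. It was 32 with all 12 arrays, 11 with all 12 arrays and slide as a fixed block, and 76 with array weights. It was 43 with trend and robust, 33 with all probes of a gene, and 15 to 59 with 1 array left out. The share of all probes at an unadjusted p under 0.05 moved too. That share was 9.15% with all 12 arrays and 3.12% with all 12 arrays and slide as a fixed block. With array weights it was 15.1%, with trend and robust 5.71%, and with 1 array left out 2.84% to 18.2%. No gain of list genes is read from the counts alone. The causes of these shifts were not tested. With the replicate number as a block, which the labels do not tie to a shared cage or day and whose pools did not all deviate together, 2062 probes differed, 1824 higher and 238 lower, and 0 passed an adjusted p of 0.05.

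Of 45 probes described one by one that had an unadjusted p under 0.05, 33 kept direction and level with quantile normalization, 23 with slide as a fixed block, 32 without low drinker pool 2, 27 in the t-test for unequal variances, 22 within slide 1 and 13 with all 12 arrays and slide as a fixed block, the lowest of these counts. Ret was reversed to -0.23 with quantile normalization and to -0.0028 with cyclic loess. Differences of probes not well above background on most arrays are limited by their signal.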
